A study of Mus musculus with 12 samples.

Results

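The G1 cyclins, their kinases and the inhibitors of those kinases were taken as the 10 rows of the deposited table named Ccnd1, Ccnd2, Ccnd3, Ccne1, Cdk4, Cdk6, Cdkn1a, Cdkn1b, Cdkn2a and Cdkn2c. All 10 names were found, each in 1 row, among 55421 rows with a gene name. RNA sequencing of C57BL/6 mouse brain cells gave 12 libraries in 4 groups of 3. A-iSCs were cells derived from astrocytes over 5 days of incubation in 3D spheres. P56-NSC and P0-NSC were progenitor preparations from brain that the design used as positive controls. Their names are given as in the sample titles, and P56 and P0 in them are read here as adult and newborn brain. The design text calls the same cells NPCs. AST were the astrocytes at 0 days of incubation, the negative control. No transgene, knockout or drug is named for any group. Whether the 3 libraries of each group stem from different cultures or animals is not stated in the labels. The p-values therefore measure only how far these libraries scatter, and that scatter may be technical.

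In the G1 phase of the cell cycle, mitogens raise the D-type cyclins, which bind the kinases CDK4 and CDK6 and start the phosphorylation of the retinoblastoma protein. Cyclin E with CDK2 completes that step and frees E2F factors to turn on genes of DNA synthesis. Inhibitors of the INK4 family bind CDK4 and CDK6, and those of the CIP/KIP family bind cyclin and kinase complexes. In the brain, D-type cyclins and these inhibitors are known for setting whether neural progenitors divide or rest, and Cdkn1a and Cdkn2a also for their rise in cultured cells that undergo senescence.

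The libraries held 17077780 to 24452419 recovered reads, and levels are given in FPKM, read counts corrected for gene length and library size. The library size behind the deposited values was not the total of recovered reads. A single read in 1 kb of gene equalled 0.0343 to 0.0623 FPKM. The 8 astrocyte markers summed to 1211 to 2466 FPKM in A-iSCs, 2834 to 3072 in P56-NSC, 238 to 303 in P0-NSC and 143 to 161 in AST. The 8 oligodendrocyte markers summed to 8032 to 9133 FPKM in P56-NSC, against 28.1 to 66.6 in the libraries of the other groups. The 8 neuron markers summed to 858 to 1034 FPKM in P0-NSC, 208 to 253 in P56-NSC and 50.6 to 124 in A-iSCs and AST. Tubb3 alone was at 634 ± 84.2 FPKM in P0-NSC (SD, n = 3). By limma adjusted p below 0.05, 3 of the 8 were higher and 4 lower in P56-NSC than in P0-NSC, where 69.2% of all genes tested differed. The 8 endothelium markers summed to 81.6 to 87.8 FPKM in P0-NSC, against 1.63 to 6.67 in the other groups. Red blood cell genes were present in both NSC groups (163 to 565 FPKM) and near 0 in A-iSCs and AST. Progenitor markers summed to 231 to 255 FPKM in P56-NSC and 879 to 963 in P0-NSC, below the 2601 to 3573 in AST. All 8 microglia markers were higher in A-iSCs than in AST, with sums of 2184 to 3225 against 200 to 265 FPKM. These are bulk samples, so fewer cells of a type and less RNA per cell cannot be told apart.

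**Figure D1:**
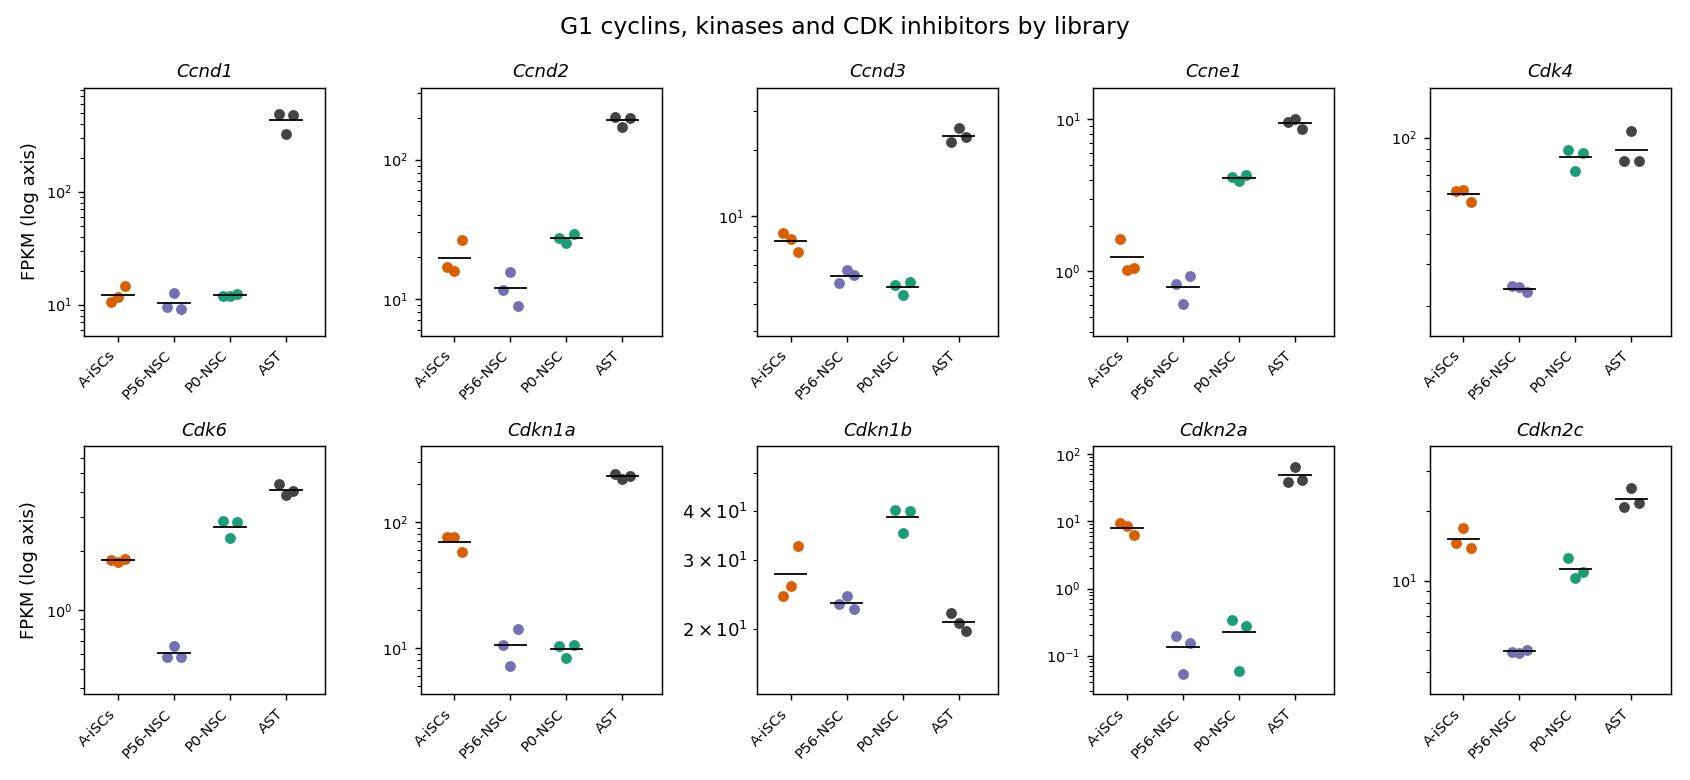
FPKM of each of the 10 genes on log axes, by group; points are the 3 libraries of a group and the bar is their mean. AST libraries lie above all A-iSCs libraries for 9 genes, and Cdkn1b shows the opposite order.

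Of the 10 genes, 9 were lower in A-iSCs than in AST after 5 days as spheres. All 10 genes were called (limma adjusted p below 0.05), 9 lower and 1 higher, where 58.9% of the 15747 genes tested were called in this comparison, 30.8% as lower and 28.1% as higher. Among the 10, 6 were lower by at least 2-fold, as were 9.61% of all genes tested. A-iSCs and AST libraries did not overlap for any of the 10, as for 60.7% of all genes tested. The D-type cyclins, cyclin E1, p21 and the Cdkn2a locus made up these 6. Cdk4, Cdk6 and Cdkn2c were lower by less than 2-fold on the log2(FPKM + 1) scale, and Cdkn1b was higher. The median change of the 10 was -1.59 on this scale, and that of all genes tested was 0. AST 2 and A-iSCs 3 stood apart within their groups in how levels varied with gene length. Without both, all 10 were still called, with changes of -5.32 to 0.25. That fit cannot check the part of gene length. In AST 1 and AST 3, departures from the group mean correlated with gene length at 0.361 and 0.385 (Spearman). In A-iSCs 1 and A-iSCs 2 they correlated at -0.281 and -0.233, so the length pattern went with the group. With only AST 2, A-iSCs 1 and A-iSCs 2 for these groups, the change of Cdkn1b was 0.26. Fibroblast and mural cell markers, of which 5 of 8 were lower in A-iSCs, summed to 33.8 to 67.0 FPKM in A-iSCs and 1884 to 2269 in AST, and none of the 8 was at 0 in all libraries of either group. Their part, and that of the microglia markers, in the changes of the 10 genes was not tested.

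The same genes were also mostly lower in the NSC groups than in AST, and all 3 comparisons use the same AST libraries. In P56-NSC against AST 9 of 10 were called, all lower and all at 2-fold or more, where 74.1% of genes tested were called, 37.0% were called lower and 17.1% were lower by at least 2-fold. In P0-NSC against AST 9 of 10 were called, 8 lower and 1 higher, where 74.2% were called, 38.3% as lower and 35.9% as higher. Against P56-NSC, A-iSCs were higher in 8 of 10 and lower in 0, where 62.9% of genes tested were called and 31.5% were called higher. Against P0-NSC, A-iSCs were higher in 4 and lower in 4 of 10, where 67.3% were called, 32.6% as higher and 34.7% as lower. P56-NSC were lower than P0-NSC in 6 of 10 and higher in 0, where 69.2% were called and 33.9% were called lower.

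**Figure D2:**
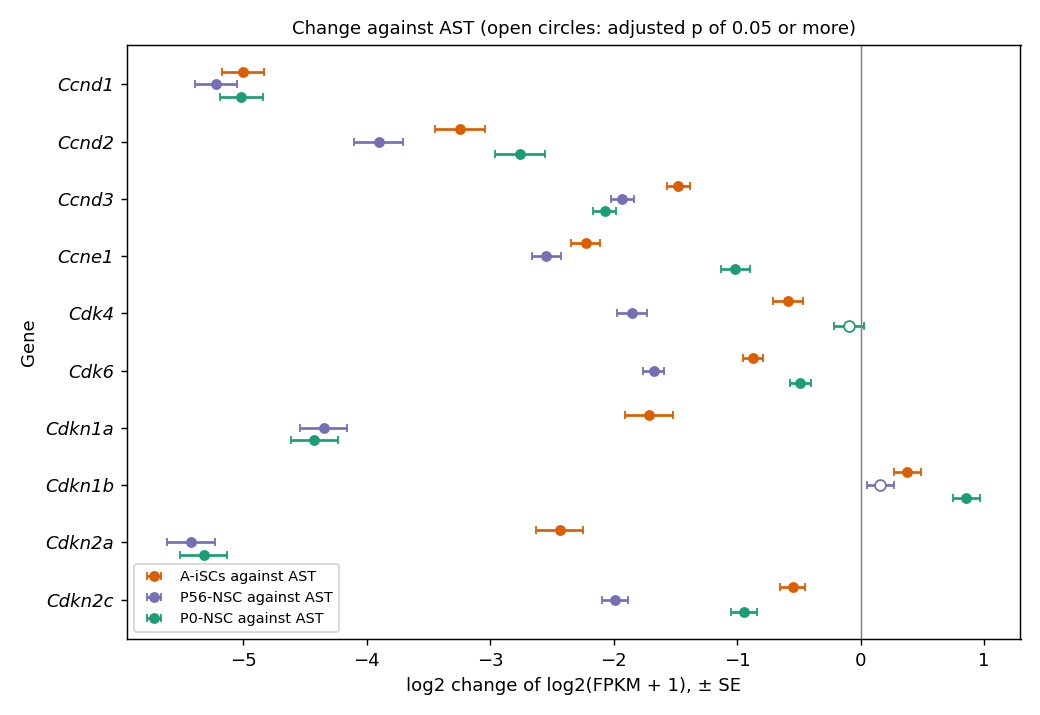
Change of each gene in A-iSCs, P56-NSC and P0-NSC against AST on the log2(FPKM + 1) scale, with standard errors from the fit; open circles are not called. Ccnd1 lies between -5.22 and -5.00 in all 3 comparisons, while Cdkn1a and Cdkn2a changed less in A-iSCs than in the NSC groups.

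Cyclin D1 is the D-type cyclin most directly raised by mitogens. Its gene Ccnd1 (ENSMUSG00000070348, chromosome 7: 144929931 to 144939925, minus strand, build GRCm38) had 10.5, 11.6 and 14.7 FPKM in A-iSCs. It had 9.60, 12.6 and 9.10 FPKM in P56-NSC, 11.97, 11.8 and 12.4 in P0-NSC, and 488, 321 and 474 in AST. All AST libraries were far above all others, AST 2 being the lowest of them, and the other 3 groups overlapped. The mean in A-iSCs was 34.9 times lower than in AST (12.3 ± 2.13 against 428 ± 92.5 FPKM, SD, n = 3 each; log2 change -5.00 ± 0.17, limma adjusted p = 1.02e-09). No difference was called between A-iSCs and P56-NSC (log2 change 0.22, 95% interval -0.16 to 0.59) or P0-NSC (0.01, -0.36 to 0.39). The difference from P56-NSC was called under scaling by total reads (0.72, limma adjusted p = 0.0028), with gene length as a covariate (0.26, 0.019) and with only AST 1, AST 3 and A-iSCs 3 for those groups (0.47, 0.0203). P56-NSC against P0-NSC was not called (-0.20, interval -0.58 to 0.17), but was under total reads (-0.78, limma adjusted p = 0.00163) and with the length covariate (-0.21, 0.0459). In AST, Ccnd1 ranked 59 to 164 among the 15747 genes tested, and in A-iSCs 3319 to 4460. Its span overlaps the gene LTO1 on the opposite strand by 1771 bases, and LTO1 had at most 722 reads in any library against 30674 or more for Ccnd1 in AST and 706 or more elsewhere.

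Cyclin D2, the D-type cyclin best known from dividing neural progenitors of the cortex and cerebellum, was also highest in AST, by a smaller factor, and differed between the NSC groups (P56-NSC against P0-NSC -1.14 ± 0.20, limma adjusted p = 0.000305). Ccnd2 (chromosome 6: 127125162 to 127152193) had 16.9, 15.8 and 26.4 FPKM in A-iSCs, 11.7, 15.6 and 8.93 in P56-NSC, 27.5, 25.01 and 29.3 in P0-NSC, and 201, 172 and 199 in AST. A-iSCs 3 reached the range of P0-NSC, and the other A-iSCs libraries lay just above the highest P56-NSC library. The mean was 9.67 times lower in A-iSCs than in AST (log2 change -3.24 ± 0.20, limma adjusted p = 7.6e-08). A-iSCs against P0-NSC missed the threshold (-0.48, interval -0.92 to -0.04, limma adjusted p = 0.0524) and was called under 10 of 25 alternatives. With all libraries kept, these were the filter of 5 FPKM (limma adjusted p = 0.0463), quantile normalization (0.0316), total reads (0.0253), voom (0.0402) and the gene length covariate (0.0236). The others left out A-iSCs 3, alone (-0.70, limma adjusted p = 0.00381) or with AST libraries (0.00388 and 0.00722), P56-NSC 2 (0.0333) or P56-NSC 3 (0.0354). The call of A-iSCs above P56-NSC (0.66 ± 0.20, limma adjusted p = 0.0129) ended without P56-NSC 3 (0.48, 0.0618), with only these groups in the fit (0.0571) and with only AST 2, A-iSCs 1 and A-iSCs 2 for AST and A-iSCs (0.44, 0.0557).

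Cyclin D3, a partner of the same kinases that is widespread in differentiated cells, was the least abundant of the family in every library. Ccnd3 (chromosome 17: 47505051 to 47599691) had 8.41, 7.86 and 6.86 FPKM in A-iSCs, 4.99, 5.67 and 5.40 in P56-NSC, 4.87, 4.38 and 5.02 in P0-NSC, and 21.8, 25.1 and 22.8 in AST. The A-iSCs libraries lay above all NSC libraries and below all AST libraries. The gene was 3.01 times lower in A-iSCs than in AST (log2 change -1.48 ± 0.09, limma adjusted p = 9.63e-08) and higher than in P56-NSC (0.45 ± 0.09, limma adjusted p = 0.00123) and P0-NSC (0.59 ± 0.09, 0.000137). P56-NSC and P0-NSC did not differ beyond their spread (0.14, interval -0.06 to 0.35), while total reads gave a lower call (-0.38, limma adjusted p = 0.00191). Ccnd3 overlaps Bysl on the opposite strand by 361 bases. Bysl had at most 476 reads per library in A-iSCs, 260 in P56-NSC, 821 in P0-NSC and 1079 in AST, where Ccnd3 itself had 1487 to 1639 in A-iSCs, 760 to 799 in P56-NSC, 977 to 1214 in P0-NSC and 3203 to 4463 in AST.

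The make-up of the D-type cyclins differed between groups as well as their sum. FPKM is per length, so the 3 genes were set side by side within a library, where the scaling between libraries has no part. How levels varied with gene length still differed between libraries of a group. The table gives Ccnd1 4709 bases, Ccnd2 9409 and Ccnd3 8775, and the part of gene length in the shares was not tested. The 3 levels summed to 35.3 to 47.9 FPKM in A-iSCs, 23.4 to 33.9 in P56-NSC, 41.2 to 46.7 in P0-NSC and 519 to 711 in AST. Ccnd1 held 29.4% to 32.9% of the sum in A-iSCs, 36.6% to 38.9% in P56-NSC, 26.5% to 28.7% in P0-NSC and 61.9% to 68.7% in AST. Ccnd2 held the largest share in all A-iSCs libraries (44.9% to 55.1%) and all P0-NSC libraries (60.6% to 62.8%). In P56-NSC it held 38.1% to 46.1%, just below Ccnd1 in P56-NSC 3. Ccnd3 held 14.3% to 23.4% in A-iSCs and 3.06% to 4.84% in AST.

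**Figure D3:**
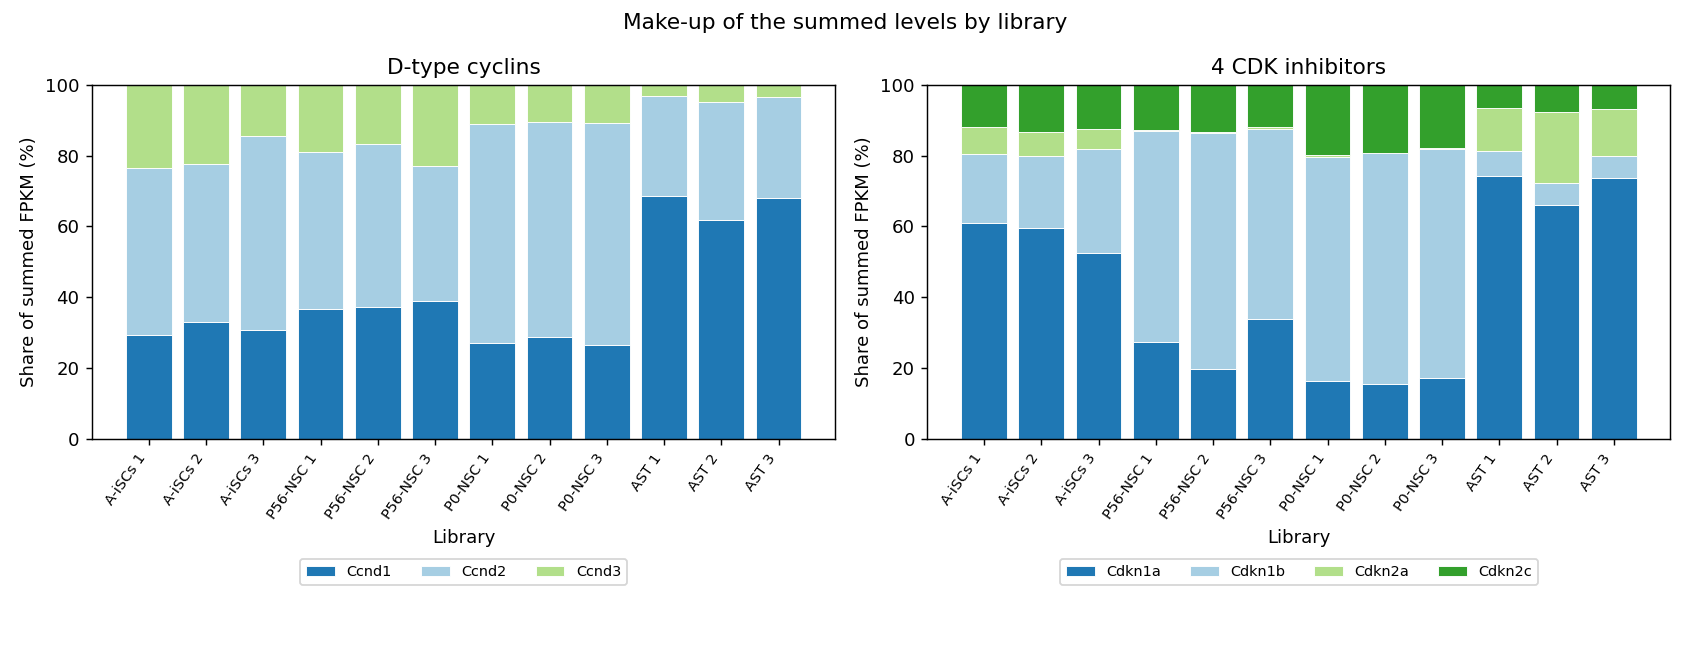
Share of each gene in the summed FPKM of the D-type cyclins (left) and of the 4 CDK inhibitors (right), as a percentage per library. Ccnd1 holds at least 61.9% of the D-type sum in AST and at most 38.9% elsewhere; Cdkn1a leads the inhibitors in A-iSCs and AST, and Cdkn1b in both NSC groups.

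Cyclin E1 activates CDK2 at the end of G1. Ccne1 (chromosome 7: 38097984 to 38107534) had 1.64, 1.03 and 1.05 FPKM in A-iSCs, 0.822, 0.609 and 0.935 in P56-NSC, 4.15, 3.95 and 4.32 in P0-NSC, and 9.59, 10.1 and 8.60 in AST. The 4 groups did not overlap, in the order AST, P0-NSC, A-iSCs, P56-NSC. A-iSCs were 7.60 times lower than AST (log2 change -2.23 ± 0.12, limma adjusted p = 1.97e-08) and 3.34 times lower than P0-NSC (-1.21 ± 0.12, 2.04e-06). These levels rest on 65 to 88 reads per library in A-iSCs and 26 to 41 in P56-NSC. The difference between those groups (0.32 ± 0.12, limma adjusted p = 0.0327) was no longer called without A-iSCs 1 (0.143), P56-NSC 1 (0.0624) or P56-NSC 2 (0.129), with A-iSCs 3 as the only A-iSCs library (0.183), without the filter (0.0592), with only these groups in the fit (0.082), nor by voom (0.0671).

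CDK4 and CDK6 are the catalytic partners of the D-type cyclins. Cdk4 (chromosome 10: 127063534 to 127067920) had 60.1, 60.6 and 54.3 FPKM in A-iSCs, 24.2, 24.0 and 22.9 in P56-NSC, 88.7, 73.1 and 86.5 in P0-NSC, and 80.1, 107 and 79.7 in AST. P0-NSC and AST overlapped, A-iSCs lay below both, and P56-NSC were lowest. Cdk4 was 1.52 times lower in A-iSCs than in AST (log2 change -0.59 ± 0.12, limma adjusted p = 0.00142). Quantile normalization removed that call (-0.19, limma adjusted p = 0.093), and scaling by total reads gave -0.37. It was 2.46 times higher in A-iSCs than in P56-NSC (1.26 ± 0.12, limma adjusted p = 2.27e-06). P0-NSC against AST gave -0.09 (interval -0.36 to 0.18). It was called lower with AST 2 as the only AST library (-0.37, limma adjusted p = 0.0153), turned to 0.045 without AST 2, and was called higher under quantile normalization (0.55, limma adjusted p = 0.000169). Cdk4 overlaps Tspan31 on the opposite strand by 641 bases, and Tspan31 had at most 1976 reads per library in A-iSCs and 1617 in AST, where Cdk4 itself had 3938 to 4733 reads in A-iSCs and 4362 to 7031 in AST.

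The start of Cdk4 lies 1 base from its RefSeq start, and the 250 bases before it are shown because they hold 4 E-boxes, the CACGTG letters that Myc with Max binds, set here in capitals (RefSeq, GRCm38.p6, chr10:127063285-127063534, plus strand).
Cdk4 upstream: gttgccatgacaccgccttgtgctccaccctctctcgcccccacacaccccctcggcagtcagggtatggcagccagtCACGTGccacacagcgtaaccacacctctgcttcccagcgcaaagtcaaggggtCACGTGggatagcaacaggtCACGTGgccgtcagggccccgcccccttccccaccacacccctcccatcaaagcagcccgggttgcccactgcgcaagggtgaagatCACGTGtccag
The E-boxes begin 172, 118, 98 and 11 bases before the start. At least 1 such match stands in 6.02% of 32851 windows of the same length, and this motif was added after the sequences were seen. The window of Cdk6 also holds 1. Myc, which is known to raise Cdk4, was at 14.1 ± 2.33 FPKM in A-iSCs and 18.5 ± 0.848 in AST (n = 3 each; log2 change -0.38 ± 0.14, limma adjusted p = 0.0332). It was at 2.26 ± 0.242 FPKM in P56-NSC and 10.7 ± 2.02 in P0-NSC. In P0-NSC Myc was lower than in AST (-0.75 ± 0.14, limma adjusted p = 0.000381), while Cdk4 was not called. The part of Myc in the levels of Cdk4 was not tested. A match in these letters is a description and not a measured binding site.

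Cdk6 was low in every group. The gene (chromosome 5: 3341485 to 3531008) had 1.81, 1.77 and 1.83 FPKM in A-iSCs, 0.581, 0.659 and 0.577 in P56-NSC, 2.85, 2.33 and 2.82 in P0-NSC, and 4.43, 3.90 and 4.08 in AST. No pair of groups overlapped, and all 6 comparisons were called. A-iSCs were 2.29 times lower than AST (log2 change -0.87 ± 0.08, limma adjusted p = 3.1e-06) and 2.98 times higher than P56-NSC (0.81 ± 0.08, 4.46e-06). With a pseudocount of 0.1 the change against P56-NSC was 1.43. Cdk4 exceeded Cdk6 by 29.7 to 34.1 times in A-iSCs, 36.4 to 41.7 times in P56-NSC, 30.6 to 31.4 times in P0-NSC and 18.1 to 27.4 times in AST. The highest of the AST ratios was that of AST 2, where shorter genes were higher than in AST 1 and AST 3. Across genes, how far AST 2 departed from its group's mean had a Spearman correlation with gene length of -0.450, against 0.361 and 0.385 for the other AST libraries. The table gives Cdk6 13989 bases and Cdk4 3249, and the part of gene length in this ratio was not tested.

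The CIP/KIP inhibitors moved in opposite directions in A-iSCs against AST. Cdkn1a encodes p21, which p53 induces after stress, and lies on chromosome 17 (29090976 to 29100727). It had 75.2, 75.7 and 57.9 FPKM in A-iSCs, 10.7, 7.17 and 14.1 in P56-NSC, 10.4, 8.30 and 10.6 in P0-NSC, and 238, 217 and 232 in AST. The A-iSCs libraries stood between AST and both NSC groups without overlap. The mean was 3.29 times lower in A-iSCs than in AST (69.6 ± 10.1 against 229 ± 10.7 FPKM, SD, n = 3 each; log2 change -1.71 ± 0.19, limma adjusted p = 1.14e-05). It was 6.54 times higher in A-iSCs than in P56-NSC (2.63 ± 0.19, limma adjusted p = 1.74e-07) and 7.12 times higher than in P0-NSC (2.71 ± 0.19, 1.29e-07). P56-NSC and P0-NSC overlapped (0.08, interval -0.35 to 0.50), while total reads gave a lower call (-0.50, limma adjusted p = 0.0375).

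Cdkn1b encodes p27, which accumulates in cells that leave the cycle, and was the 1 gene of the 10 with its lowest level in AST. The gene (chromosome 6: 134920401 to 134925513) had 24.2, 25.8 and 32.5 FPKM in A-iSCs, 23.2, 24.3 and 22.5 in P56-NSC, 40.3, 35.1 and 40.0 in P0-NSC, and 22.0, 20.7 and 19.7 in AST. P0-NSC lay above all other libraries, and A-iSCs 1 fell within the range of P56-NSC. The rise in A-iSCs over AST was 1.32-fold (log2 change 0.38 ± 0.11, limma adjusted p = 0.0108), and its log2 size was 0.64 under quantile normalization. It was not called when only AST 2, A-iSCs 1 and A-iSCs 2 stood for these groups (0.26, limma adjusted p = 0.0621), a fit that takes the single AST library to scatter as the other groups do. P0-NSC were 1.85 times higher than AST (0.85 ± 0.11, limma adjusted p = 1.83e-05). P56-NSC against AST was not called (0.16, interval -0.08 to 0.40), nor was A-iSCs against P56-NSC (0.22, -0.02 to 0.46). The change against P56-NSC was called under total reads (0.75, limma adjusted p = 6.91e-05), quantile normalization (0.34, 0.02), with A-iSCs 3 as the only A-iSCs library (0.46, 0.00349) and without A-iSCs 1 (0.30, 0.0413). P56-NSC against AST was called under quantile normalization (0.30, limma adjusted p = 0.0338) and was -0.17 under total reads.

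The Cdkn2a locus had the widest range of the 10 genes and was close to absent from both NSC groups. Its row (ENSMUSG00000044303, chromosome 4: 89274471 to 89294653, minus strand, 1172 bases) had 9.53, 8.54 and 6.21 FPKM in A-iSCs, 0.197, 0.0532 and 0.155 in P56-NSC, 0.336, 0.0586 and 0.279 in P0-NSC, and 39.2, 65.5 and 41.9 in AST. The reads behind these levels numbered 195 to 238 per library in A-iSCs, 1 to 4 in P56-NSC, 2 to 9 in P0-NSC and 770 to 1556 in AST. A-iSCs lay below every AST library and above every NSC library, and the NSC groups overlapped at the level of a few reads. A-iSCs were 6.04 times lower than AST (log2 change -2.44 ± 0.19, limma adjusted p = 5.45e-07), and the change was -2.21 without AST 2, the highest AST library. Against P56-NSC the change was 2.99 ± 0.19 (limma adjusted p = 5.39e-08) and against P0-NSC 2.88 ± 0.19 (7.24e-08). With a pseudocount of 0.1 in place of 1 these were 5.15 and 4.76. No linear ratio is given for the NSC groups because single libraries there hold as little as 1 read.

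Cdkn2a makes unrelated proteins from separate first exons. Transcripts from the upstream start encode p19Arf, which stabilises p53 through Mdm2, and those from the downstream start encode p16Ink4a, which binds CDK4 and CDK6. The table has 1 row for the locus, so the values do not say which product was present. The 250 bases before each RefSeq start of Cdkn2a are shown because they mark these separate promoters (RefSeq, GRCm38.p6, chr4:89294620-89294869 and chr4:89282193-89282442, minus strand), with a match to an E2F motif in capitals.
Cdkn2a upstream start: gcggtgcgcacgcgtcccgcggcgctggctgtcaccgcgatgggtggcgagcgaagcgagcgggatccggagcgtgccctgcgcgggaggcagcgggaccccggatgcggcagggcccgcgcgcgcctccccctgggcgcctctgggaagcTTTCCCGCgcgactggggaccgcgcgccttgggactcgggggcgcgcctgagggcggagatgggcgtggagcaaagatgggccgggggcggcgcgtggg
Cdkn2a downstream start: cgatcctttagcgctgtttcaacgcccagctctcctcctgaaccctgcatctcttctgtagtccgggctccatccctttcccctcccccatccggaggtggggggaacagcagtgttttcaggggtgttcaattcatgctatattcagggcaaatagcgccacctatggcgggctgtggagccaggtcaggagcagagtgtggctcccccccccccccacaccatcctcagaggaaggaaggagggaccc
The upstream window is 78.4% G and C and holds TTTCCCGC from 99 to 92 bases before the start. The downstream window is 60.0% G and C and holds none of the letters TTTGGCGC, TTTCGCGC, TTTCCCGC or TTTGCCGC on either strand. A match to any of these 4 stands in 1.86% of 32851 windows, and in 1 of the 12 windows matched to 8 of the 10 genes. The windows at hand included none for Ccnd1 or Ccnd2. GC boxes (GGGCGG) were found in 8 of the 12 windows, against 32.7% of all windows, and CCAAT in 2 of the 12, against 33.8%.

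Cdkn2c encodes p18Ink4c, an INK4 inhibitor known from dividing progenitors. The gene (chromosome 4: 109660876 to 109667189) had 14.6, 17.0 and 13.8 FPKM in A-iSCs, 4.91, 4.87 and 5.02 in P56-NSC, 12.6, 10.3 and 11.0 in P0-NSC, and 20.9, 25.3 and 21.8 in AST. The groups did not overlap, in the order AST, A-iSCs, P0-NSC, P56-NSC, and every comparison was called. A-iSCs were 1.496 times lower than AST (log2 change -0.55 ± 0.10, limma adjusted p = 0.000729), and the change was -0.30 under quantile normalization (0.0368). They were 3.07 times higher than P56-NSC (1.44 ± 0.10, limma adjusted p = 1.7e-07).

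Set against the D-type cyclins, the summed transcripts of the 4 inhibitors among the 10 genes were highest in A-iSCs. The FPKM of the 4 inhibitors summed to 110 to 127 in A-iSCs, 36.4 to 41.7 in P56-NSC, 53.7 to 63.6 in P0-NSC and 316 to 328 in AST. Divided by the summed D-type cyclins of the same library, this gave 3.44, 3.60 and 2.30 in A-iSCs. The quotient was 1.48, 1.07 and 1.78 in P56-NSC, 1.43, 1.30 and 1.32 in P0-NSC, and 0.450, 0.633 and 0.454 in AST. For these 4 inhibitors, A-iSCs lay above all other libraries and AST below them. The inhibitor genes have 1172 to 4552 bases in the table and the D-type cyclins 4709 to 9409. The lowest A-iSCs quotient was that of A-iSCs 3 and the highest AST quotient that of AST 2. Those libraries stood apart within their groups in how levels varied with gene length. The part of gene length in the quotient was not tested. The sum leaves out Cdkn1c, Cdkn2b and Cdkn2d, and whether the order holds with them was not tested. Against P56-NSC, Cdkn1c and Cdkn2d were lower in A-iSCs (log2 changes -1.54 and -0.30) and Cdkn2b was higher (2.72). Against P0-NSC, Cdkn1c was lower (-3.04), Cdkn2b higher (2.67) and Cdkn2d not called. Cdkn2a is counted whole, although its row does not separate p16Ink4a from p19Arf. Cdkn1a exceeded Cdkn1b by 1.78 to 3.10 times in A-iSCs and 10.5 to 11.8 times in AST, and was 0.296 to 0.627 of it in P56-NSC and 0.237 to 0.264 in P0-NSC. These quotients are descriptions, since an exact permutation test of 3 against 3 libraries cannot give a p below 0.10. They concern transcripts and not proteins.

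**Figure D4:**
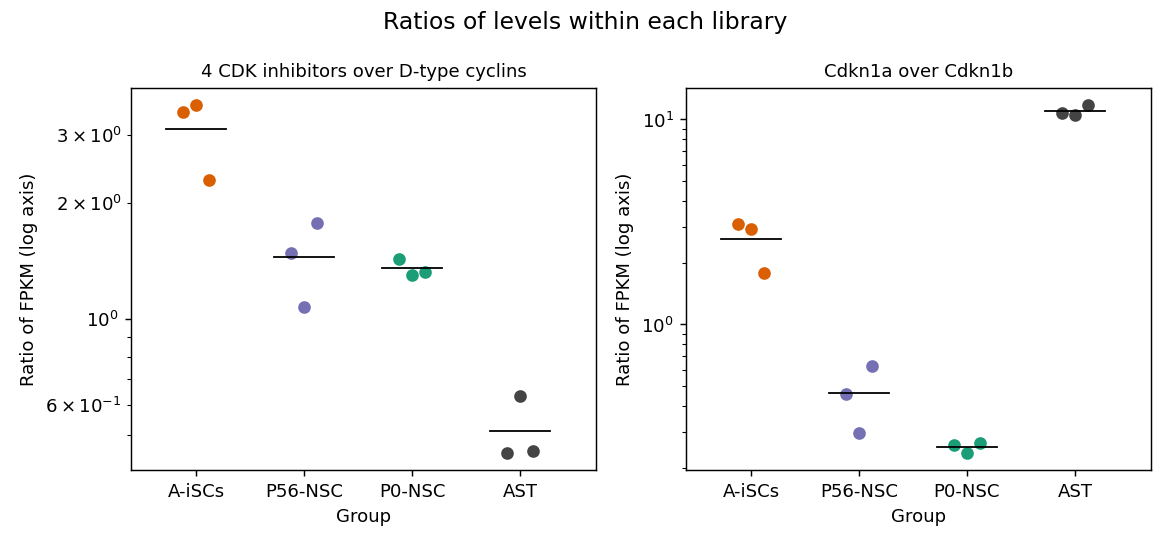
Quotient of the summed FPKM of 4 CDK inhibitors and of 3 D-type cyclins (left) and of Cdkn1a and Cdkn1b (right) in each library, on log axes, with the mean of a group as a bar. A-iSCs range from 2.30 to 3.60 on the left, against 0.450 to 0.633 in AST; on the right AST are highest, at 10.5 to 11.8.

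The rest of the G1/S pathway was described from a list of 45 genes in 9 roles, of which 44 were tested; Skp2 is listed at 0 in all 12 libraries. In A-iSCs against AST 37 were lower and 4 higher, in P56-NSC against AST 36 and 4, and in P0-NSC against AST 31 and 6. Of all genes tested, 30.8%, 37.0% and 38.3% were called lower in these comparisons, and 28.1%, 37.1% and 35.9% higher. Their median log2 changes were -0.86, -1.29 and -0.64, where those of all genes tested were 0, -0.004 and -0.037.

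Among other cyclins and kinases, all 3 fell in A-iSCs. Ccna2, the cyclin of S phase, was at 2.85 ± 0.437 FPKM in A-iSCs and 16.3 ± 1.82 in AST (n = 3 each; log2 change -2.17 ± 0.15, limma adjusted p = 1.96e-07). Cdk2, its kinase, was lower by less (2.56 ± 0.315 FPKM in A-iSCs, 4.43 ± 0.544 in AST), as was Ccne2, the relative of Ccne1 (1.84 ± 0.269 in A-iSCs, 3.32 ± 1.28 in AST). Of the CDK-activating kinase, Mnat1 and Cdk7 fell (log2 changes -1.09 ± 0.14 and -0.85 ± 0.10) and Ccnh was not called (-0.16, limma adjusted p = 0.252).

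Of the other CDK inhibitors, 2 fell and 1 rose in A-iSCs against AST. Cdkn2b, the INK4 gene next to Cdkn2a, was at 9.78 ± 1.42 FPKM in A-iSCs, 0.637 ± 0.173 in P56-NSC, 0.689 ± 0.138 in P0-NSC and 28.3 ± 0.919 in AST. It fell in A-iSCs against AST (-1.45 ± 0.11, limma adjusted p = 5.25e-07). Cdkn2d, an INK4 gene of postmitotic neurons, fell too, to 11.96 ± 1.41 FPKM in A-iSCs, against 26.8 ± 2.82 in AST. Cdkn1c, the imprinted CIP/KIP gene for p57, was higher (1.92 ± 0.667 FPKM in A-iSCs, 0.872 ± 0.0233 in AST; log2 change 0.61 ± 0.20, limma adjusted p = 0.0204) and reached 7.47 ± 1.86 in P56-NSC and 22.8 ± 4.48 in P0-NSC.

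Of the pocket proteins, which hold E2F factors in check, Rb1 and Rbl2 rose in A-iSCs and Rbl1 fell. Rbl2, a gene for the p130 protein of resting cells, was at 7.83 ± 2.59 FPKM in A-iSCs and 2.73 ± 0.181 in AST (log2 change 1.20 ± 0.15, limma adjusted p = 3.56e-05), and at 12.5 ± 0.501 in P56-NSC. Rb1 was at 15.7 ± 1.52 FPKM in A-iSCs and 11.0 ± 0.705 in AST, and Rbl1 at 2.28 ± 0.401 in A-iSCs and 3.75 ± 0.375 in AST. Of 10 E2F and DP factors 8 fell and 0 rose, among them E2f8 (0.396 ± 0.0312 FPKM in A-iSCs, 3.21 ± 0.118 in AST), the activator E2f1 (4.15 ± 0.122 in A-iSCs, 13.9 ± 1.57 in AST) and the repressor E2f6 (7.64 ± 1.93 in A-iSCs, 16.6 ± 1.68 in AST).

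Genes that E2F drives at S phase fell in 13 of 13 cases in A-iSCs and in P56-NSC against AST, and in 10 of 13 in P0-NSC with 1 higher, where 30.8%, 37.0% and 38.3% of all genes tested were called lower in A-iSCs, P56-NSC and P0-NSC. Rrm2, a subunit of ribonucleotide reductase, was at 7.33 ± 0.399 FPKM in A-iSCs and 126 ± 1.47 in AST. Tk1, a thymidine kinase, was at 1.31 ± 0.254 FPKM in A-iSCs and 7.73 ± 1.03 in AST. Mcm5, part of the replicative helicase, was at 3.57 ± 0.405 FPKM in A-iSCs and 13.8 ± 2.24 in AST. The 6 markers of dividing cells summed to 19.2 to 21.1 FPKM in A-iSCs, 7.66 to 10.9 in P56-NSC, 40.4 to 51.4 in P0-NSC and 126 to 139 in AST. The group means of Ccnd2, Ccne1, Cdk4 and Cdk6 stood in the same order, though for Ccnd2 and Cdk4 not every neighbouring pair was called. Those of Ccnd1, Ccnd3, Cdkn1a, Cdkn1b, Cdkn2a and Cdkn2c did not. The part of dividing cells in the levels of the 10 genes was not tested.

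Of the genes upstream, Fosl1, an AP-1 factor induced by mitogens, fell to 1.33 ± 0.667 FPKM in A-iSCs, against 6.97 ± 0.509 in AST (log2 change -1.81 ± 0.16, limma adjusted p = 1.53e-06). Jun, another AP-1 factor, was at 68.9 ± 15.2 FPKM in A-iSCs and 91.9 ± 9.72 in AST (-0.43 ± 0.16, limma adjusted p = 0.0324). Mdm2, a p53 target that also degrades p53, was at 25.8 ± 4.79 FPKM in A-iSCs and 51.4 ± 3.36 in AST (-0.98 ± 0.14, limma adjusted p = 6.57e-05), and Trp53, the gene for p53, at 19.7 ± 6.05 in A-iSCs and 28.9 ± 4.74 in AST (-0.56 ± 0.19, 0.0251). Cks1b, a cofactor in the breakdown of p27, was at 10.7 ± 0.960 FPKM in A-iSCs and 62.5 ± 11.8 in AST (-2.43 ± 0.14, limma adjusted p = 4.27e-08). Fbxw7, part of the ubiquitin ligase for cyclin E, was lower in A-iSCs (-0.52 ± 0.11), and Ambra1, which promotes the breakdown of D-type cyclins, was higher (0.44 ± 0.09).

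**Figure D5:**
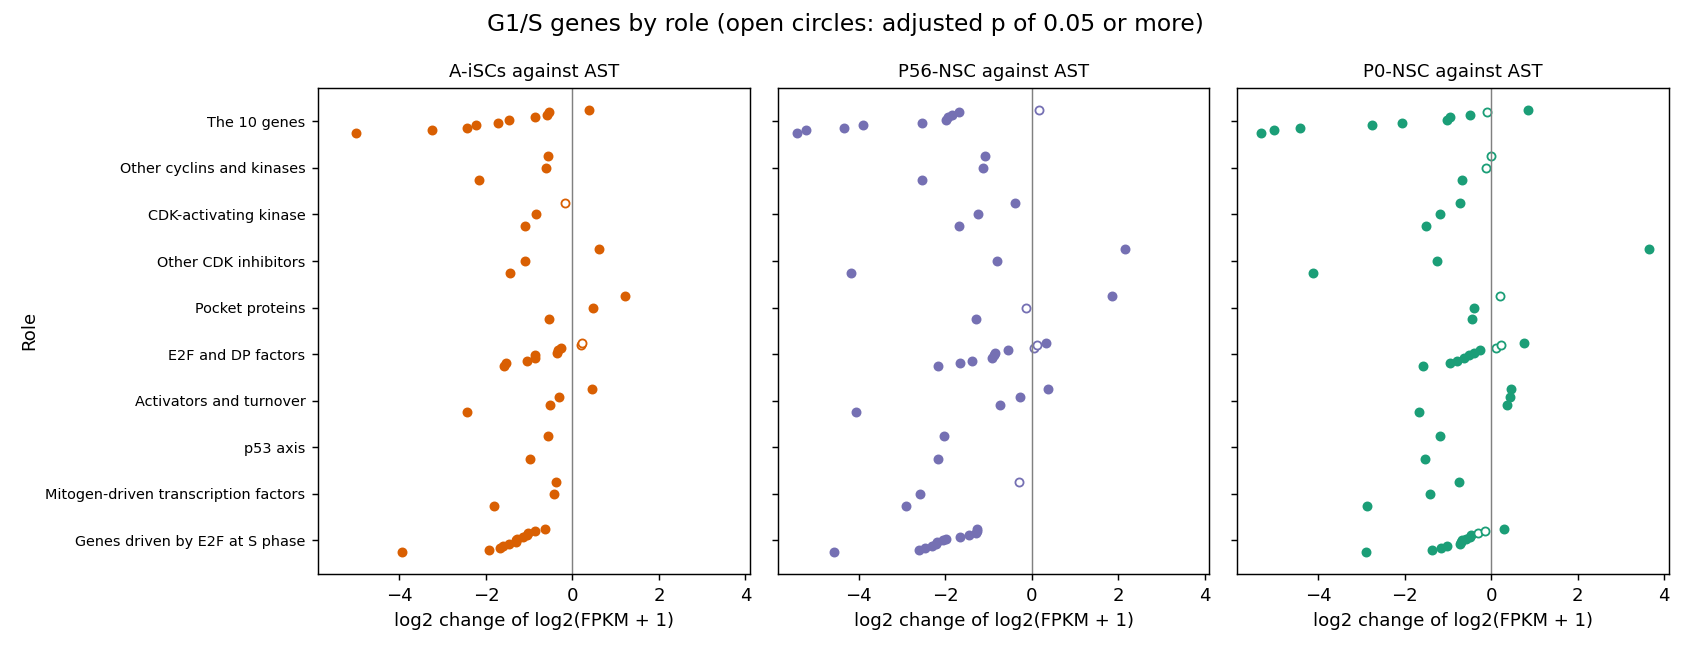
Change of the 10 genes and of 44 other G1/S genes by role, on the log2(FPKM + 1) scale, in A-iSCs, P56-NSC and P0-NSC against AST; open circles are not called. Of the S phase genes 13 of 13 lie left of 0 and are called in A-iSCs and in P56-NSC, and 10 of 13 in P0-NSC.

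The genes whose pattern over the 12 libraries was most like that of the 3 most variable members were found by Pearson correlation of log2(FPKM + 1). For Cdkn2a they were Tnfrsf12a (r = 0.997), Eif4ebp1 (0.997) and Efemp2 (0.996). For Ccnd1 they were Inhba (0.997), Gdf6 (0.997) and Gask1b (0.996), and for Cdkn1a Nucb1 (0.995), Stt3a (0.994) and Spata6 (0.994). Inhba, an activin subunit, was at 0.314 ± 0.0753 FPKM in A-iSCs and 12.7 ± 1.56 in AST, and Tnfrsf12a, a receptor for TWEAK, at 46.7 ± 13.2 in A-iSCs and 307 ± 67.8 in AST. The points share their libraries and scaling and fall into 4 groups, so these values describe likeness only.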

How the data were processed

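Libraries were prepared from 3 µg of RNA per sample, extracted with Trizol, using a NEBNext Ultra kit that the labels' protocols do not call stranded. The authors deposited 1 table of FPKM values for 55862 genes and 12 libraries. The submitters' processing notes list the aligner Bowtie (0.12.2) beside the mouse builds mm8 and mm9. Gene coordinates in the table are on GRCm38: they match GENCODE M21 for 99.5% of 55154 shared identifiers and for all 10 genes. How reads were counted, and how the authors scaled between libraries, is not given in the sources used. The deposited FPKM were multiplied by gene length and divided by a unit fitted to the same values in each library. This returned whole reads, to within 0.01, for 100% of values. The unit also gives the library size implied by the FPKM, which differed from the total of recovered reads. The 441 entries that lack a gene name (0.0957% to 0.156% of reads) were not tested.

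Groups and replicate numbers came from the sample titles. The tests used log2(FPKM + 1) and limma 3.58.1 (R 4.3.3), with a trend of spread on mean, over 15747 genes that reached 1 FPKM in 3 or more libraries. One model held the 4 group means of all 12 libraries, and 6 comparisons were taken from it, each adjusted by Benjamini-Hochberg over all genes tested. A gene was called at an adjusted p below 0.05. A pseudocount of 1 understates changes of low genes. The code was tested on simulated reads. Python 3.11.15 (pandas 2.3.3, matplotlib 3.10.9) made the tables and figures.

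The 10 genes and all lists were chosen with earlier results of these data known. The naming rule took all 10 genes, up to 3 called genes of largest change in A-iSCs against AST per pathway role, and the 3 genes closest in pattern to each of the 3 members of widest range. Replicates differed by more than counting noise (chi-square over its degrees of freedom was 2.51 to 95.1), so each was kept as 1 library. Alternatives covered the pseudocount, the filter, the scaling, voom on recovered reads, the samples in the fit, a replicate block, gene length and each library left out.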

Additional observations from a re-analysis of the deposited data

How the results depend on the processing

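Each of the 60 changes of the 10 genes was recomputed under 25 alternatives (24 for Cdk6, which a filter of 5 FPKM removed). Of these values 1445 kept their direction and side of the threshold, 13 fell short of it, 21 newly passed it and 15 turned sign. The number of the 10 genes called under these alternatives was 9 or 10 in A-iSCs against AST, 8 to 10 in P56-NSC and in P0-NSC against AST, 6 to 10 in A-iSCs against P56-NSC, 7 to 9 in A-iSCs against P0-NSC and 5 to 9 in P56-NSC against P0-NSC. Sign turned only for changes not called at the outset. For Cdk4 in P0-NSC against AST it turned under quantile normalization (0.55), scaling by total reads (0.19) and without AST 2 (0.045), also when A-iSCs 3 or A-iSCs 1 and A-iSCs 2 were left out with it (0.045). For Ccnd1 in A-iSCs against P0-NSC it turned under quantile normalization (-0.027), total reads (-0.057) and without A-iSCs 3 (-0.11), also when AST 2 or AST 1 and AST 3 were left out with it (-0.11). Under total reads it also turned for Cdkn1b in P56-NSC against AST (-0.17), and in P56-NSC against P0-NSC for Ccnd3 (-0.38, limma adjusted p = 0.00191) and Cdkn1a (-0.50, 0.0375). The last was -0.13 without P56-NSC 3 and -0.027 without P0-NSC 2. With single libraries left out, these ranged from -0.16 to 0.045 for Cdk4, -0.11 to 0.11 for Ccnd1 and -0.13 to 0.31 for Cdkn1a. The cause was not tested. Scaling by total reads moved the median change of all genes from 0.033 to 0.436 in A-iSCs against P56-NSC. In P56-NSC against P0-NSC it moved from 0.002 to -0.449. Mitochondrial genes held 16.5% to 17.6% of reads in P56-NSC and at most 7.03% elsewhere. Scaling by total reads replaces the library size implied by the deposited FPKM. That size was 16050789 to 17358856 in P56-NSC, against 21380187 to 22285109 recovered reads. In P0-NSC it was 22876740 to 29114241, against 18778071 to 24452419. It was also above the recovered reads in A-iSCs and below them in AST.

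In A-iSCs against AST 2955 genes were called at 2-fold or more, 4721 with a pseudocount of 0.1 and 4964 by voom, which adds less to low values. Voom called 9499 genes and the test on log2(FPKM + 1) 9279. Deviations of same-numbered A-iSCs and AST libraries had correlations of -0.395, 0.342 and 0.442 for numbers 1, 2 and 3. Those of the other pairs of groups lay between -0.169 and 0.108. Libraries of these groups also differed in how levels varied with gene length, so the correlations cannot decide whether the numbers pair samples. With the replicate block 9149 genes and all 10 members were called in A-iSCs against AST, and no member's call changed in any comparison. Of genes called in A-iSCs against AST 47.7% were higher, and 60.9% under total reads. For A-iSCs against P56-NSC these were 50.1% and 73.4%, for P56-NSC against P0-NSC 51.0% and 27.3%, for P56-NSC against AST 50.1% and 38.7%, and for P0-NSC against AST 48.4% and 58.7%. The level of Cdkn2a in NSC libraries, at 1 to 9 reads, is limited by depth; counting error is the only error these reads cover.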
